A study of Mus musculus with 2 samples.

Results

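The NFE2, BACH and small MAF factors are a family of basic leucine zipper transcription factors. Genes of this family were followed here together with Keap1, which encodes an inhibitor of the Nfe2l2 product, 10 genes in all. The members were Nfe2, Nfe2l1, Nfe2l2 and Nfe2l3, Bach1 and Bach2, the small MAF genes Mafk, Mafg and Maff, and Keap1. They were matched by the symbol that belongs to each Ensembl gene identifier, and all 10 were present among 43346 mouse genes. Their transcript models numbered 52 among 103639. Poly(A) RNA was read in paired ends from G1E-ER4, a mouse erythroid progenitor line that lacks endogenous Gata1. The line carries GATA1 fused to an estrogen receptor domain, and both libraries came from cells given 17beta-estradiol at 10 nM for 3 h. The 2 libraries form 1 group, numbered by the labels as biological replicates 1 and 2, and the labels tie both to the same cell sample record. Differences between them may therefore be technical. The line is immortalised, an untreated library was not analysed here, and the values are levels and not responses to the hormone.

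The CNC activators NFE2, NFE2L1 (NRF1), NFE2L2 (NRF2) and NFE2L3 and the BACH repressors bind DNA as heterodimers with a small MAF protein. Small MAF proteins have no activation domain of their own, so the partner decides whether a bound gene is activated or repressed. The sites they bind include the antioxidant response element and the NF-E2 site of the globin locus control regions. KEAP1 holds NRF2 for degradation until oxidants modify it, and heme binding releases BACH1 from DNA, a switch known from globin and heme oxygenase genes in erythroid cells.

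Replicate 1 held 31126956 expected counts, which are the authors' estimated fragments per gene, and replicate 2 held 57853617. Levels are given in TPM, for which the authors divided fragments by transcript length and set every library to an equal sum. A gene was called expressed at 1 TPM in both libraries, a level that 8281 of 21474 protein-coding genes reached (38.6%). Erythroid markers reached it for 9 of 9 genes, with a summed level of 2438 TPM in replicate 1 and 17683 TPM in replicate 2. The globins Hba-a1 and Hbb-bs held 149 and 863 TPM of that sum in replicate 1 and 6606 and 9484 TPM in replicate 2. Gata1 held 190 TPM of it in replicate 1 and 799 TPM in replicate 2. Because the line lacks endogenous Gata1 and carries a GATA1 fusion, those reads cannot be taken as endogenous expression. Of the 9 markers, Gata1 included, 2 were higher in replicate 1 and 6 in replicate 2 beyond counting noise. Of all tested genes, 37.2% were so in replicate 1 and 43.1% in replicate 2. Megakaryocyte markers reached it for 1 of 7 genes, the integrin Itga2b, named after its values were seen, with a sum of 12.9 TPM in replicate 1 and 14.7 TPM in replicate 2. No mast cell, B cell, T cell, macrophage and granulocyte or fibroblast marker reached 1 TPM in both libraries. The sums of these lists lay between 0.35 and 0.91 TPM in replicate 1 and between 0.08 and 2.17 TPM in replicate 2. In RNA from a whole culture, fewer expressing cells and less RNA per cell cannot be told apart.

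Of the 10 members, 8 were expressed in both libraries, and the 2 that were not were Nfe2l3 and Bach2. By mean level the order was Mafk, Keap1, Nfe2, Mafg, Nfe2l1, Bach1, Nfe2l2, Maff, Bach2 and Nfe2l3. The ranges of the 2 libraries overlapped between the neighbours Mafk and Keap1, Keap1 and Nfe2, Mafg and Nfe2l1, and Bach2 and Nfe2l3. For those pairs of neighbours the order is within the spread between libraries. The values of the other neighbours did not overlap, narrowly for Nfe2 over Mafg, where the lowest Nfe2 value was 45.8 TPM and the highest Mafg value 40.8 TPM. Bach1 over Nfe2l2 was closer still, with 18.5 TPM as the lowest Bach1 value and 17.6 TPM as the highest Nfe2l2 value.

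**Figure D1:**
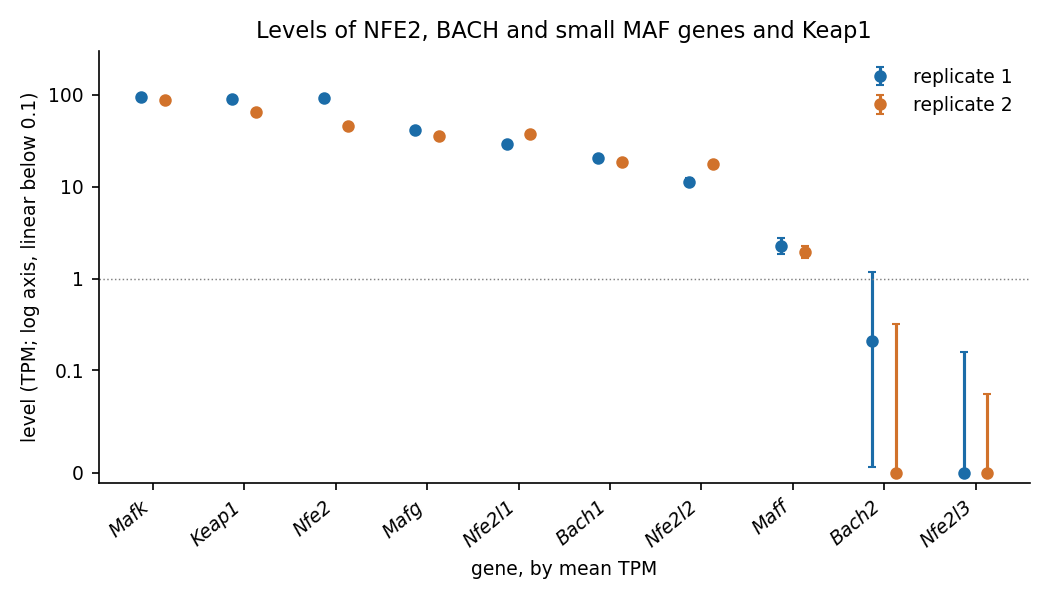
Level of each member in TPM on a logarithmic axis that is linear below 0.1, with replicate 1 and replicate 2 as points and bars for exact Poisson 95% intervals, which cover counting error only, or for a value of 0 for the limit that 3 counts give. The dotted line marks 1 TPM. Mafk, Keap1, Nfe2, Mafg, Nfe2l1, Bach1, Nfe2l2 and Maff lie above the line in both libraries, while Nfe2l3 lies at 0 in both.

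Among the CNC activators, Nfe2 encodes the hematopoietic subunit of NF-E2, which is known for its role in platelet formation and for binding globin control regions. The gene lies on chromosome 15 at chr15:103248212-103258403 on the minus strand (GRCm38). Nfe2 had 92.1 TPM in replicate 1 (95% interval 89.1 to 95.2) and 45.8 TPM in replicate 2 (44.4 to 47.3), from 3565 and 3702 expected counts. Replicate 1 was thus the high library for Nfe2 and the intervals did not overlap. After scaling of library sizes by the trimmed mean of M values (TMM), Nfe2 was 1.59-fold higher in replicate 1 (95% interval 1.52 to 1.66, adjusted p = 8.49e-85, exact conditional binomial test with Benjamini-Hochberg adjustment over all genes tested). That test compares 2 libraries and measures counting noise only, and 80.4% of 10635 tested genes passed it. A difference at least as wide as that of Nfe2 was therefore common, since 44.7% of tested genes, not matched to it in count, differed by more.

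Nfe2l1 encodes NRF1, a factor held in the endoplasmic reticulum membrane that is known for driving proteasome subunit genes. It lies at chr11:96817414-96829968 on the minus strand. Nfe2l1 had 29.1 TPM in replicate 1 and 37.5 TPM in replicate 2, with a mean of 33.3 ± 5.98 TPM (SD, n = 2). In scaled counts it was 1.30-fold higher in replicate 2 (95% interval 1.24 to 1.35). Here replicate 2 was the high library, the opposite of Nfe2.

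Nfe2l2 encodes NRF2, the main activator of antioxidant and detoxification genes, and lies at chr2:75675513-75704641 on the minus strand. Its level was 11.3 TPM in replicate 1 (95% interval 10.4 to 12.2) and 17.6 TPM in replicate 2 (16.9 to 18.4), from 565 and 2039 expected counts. It was 2.18-fold higher in replicate 2 in scaled counts (95% interval 1.99 to 2.41, adjusted p = 1.76e-68 by the exact conditional binomial test). In scaled counts Nfe2l2 was the member that differed most between the libraries and the 1 member of 8 tested that differed at least 2-fold. In TPM it was instead Nfe2 that differed most, 2.01-fold against 1.56-fold for Nfe2l2. Of all tested genes 26.8% differed at least 2-fold in scaled counts, 19.5% with replicate 2 higher and 7.32% with replicate 1 higher. With library sizes taken as total counts the log2 ratio of Nfe2l2, replicate 1 over replicate 2, was −0.96, under 2-fold.

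Nfe2l3, the remaining CNC activator, encodes NRF3 and lies at chr6:51432670-51458768. It had 0 expected counts in both libraries. A count of 0 allows up to 3 counts, or 0.159 TPM in replicate 1 and 0.0770 TPM in replicate 2 if all 3 fell on its shortest transcript. Against that limit per library, Nfe2 was at least 577.5-fold higher than Nfe2l3 in replicate 1 and at least 594.8-fold higher in replicate 2. Nfe2l3 was thus not detectable at this depth.

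The sum over the CNC activators was 132.4 TPM in replicate 1 and 101 TPM in replicate 2. Nfe2 made up 69.5% of that sum in replicate 1 and 45.4% in replicate 2, Nfe2l1 22.0% and 37.2%, and Nfe2l2 8.52% and 17.4%. Nfe2 was the most abundant CNC transcript in both libraries on the TPM scale, but its lead differed widely. As a log2 ratio of TPM + 1, a scale that understates differences of low genes, Nfe2 over Nfe2l1 was 1.63 in replicate 1 and 0.28 in replicate 2, a mean of 0.96 ± 0.95 (SD, n = 2). With expected counts in place of TPM, and so without division by length, the mean ratio was −0.36, so the direction rests on the scaling to length. Nfe2 over Nfe2l2 was 2.92 in replicate 1 and 1.33 in replicate 2, and Nfe2l1 over Nfe2l2 was 1.29 and 1.05, the steadier of these ratios.

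The repressor Bach1 lies at chr16:87698945-87733346 on the plus strand. BACH1 competes with the activators for antioxidant and globin sites and leaves them when heme is bound. Bach1 had 20.6 TPM in replicate 1 (95% interval 19.8 to 21.4) and 18.5 TPM in replicate 2 (18.0 to 19.0), a mean of 19.6 ± 1.48 TPM (SD, n = 2). In scaled counts it was 1.19-fold higher in replicate 2, although its TPM was higher in replicate 1. The same held for Mafk, Mafg and Maff. Over 10580 tested genes with a TPM above 0 in both libraries, the median log2 TPM ratio was 0.32 for replicate 1 over replicate 2, whereas the median log2 ratio of scaled counts was −0.06, so small differences in TPM and in counts can point to different libraries.

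Bach2, known for its role in B cells, lies at chr4:32238804-32586108. It had 1 expected count in replicate 1, equal to 0.21 TPM with a 95% interval of 0.00532 to 1.17 TPM, and 0 in replicate 2, where 3 counts on the shortest transcript would allow up to 0.320 TPM. The 1 count was assigned to Bach2-206, a noncoding transcript of 331 bases. No coding transcript of Bach2 had a count, and Bach1 was at least 57.8-fold higher than Bach2 in replicate 2 against that limit.

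The ratio of activator to repressor transcripts was compared within each library. Nfe2 over Bach1 was 2.11 in replicate 1 and 1.26 in replicate 2 on the log2(TPM + 1) scale, while Nfe2l2 over Bach1 was −0.81 and −0.07. Nfe2 transcripts thus exceeded those of Bach1 in both libraries on the TPM scale, and those of Nfe2l2 were below Bach1 in replicate 1 and close to it in replicate 2. In expected counts, not divided by length, the mean of Nfe2 over Bach1 was −0.10, the opposite sign to TPM. The BACH sum was 0.157 of the CNC sum in replicate 1 and 0.183 in replicate 2.

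The small MAF genes encode the shared partners. Mafk, which encodes the p18 subunit of erythroid NF-E2, lies at chr5:139791513-139802653 on the plus strand and was the most abundant member by mean. Mafk had 94.9 TPM in replicate 1 (95% interval 92.5 to 97.4) and 86.5 TPM in replicate 2 (84.9 to 88.1), a mean of 90.7 ± 5.95 TPM (SD, n = 2). Mafg, at chr11:120625117-120633600, had 40.8 TPM in replicate 1 (39.2 to 42.4) and 35.3 TPM in replicate 2 (34.3 to 36.3). Maff, at chr15:79346621-79359076, had 2.27 TPM in replicate 1 (1.85 to 2.76) and 1.96 TPM in replicate 2 (1.69 to 2.27). The 3 genes kept the same order in both libraries with no overlap.

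In scaled counts Mafk was 1.24-fold higher in replicate 2 (95% interval 1.20 to 1.28) and Mafg 1.09-fold higher (1.04 to 1.15). With total counts as library sizes the log2 ratio of replicate 1 over replicate 2 changed sign for Mafg, to 0.041, where its call was lost, and for Maff, to 0.036. Maff did not differ beyond counting noise (1.10-fold higher in replicate 2, 95% interval 0.857 to 1.41, adjusted p = 0.527 by the exact conditional binomial test), and its 101 and 183 expected counts leave a wide interval. Mafk made up 68.8% of the small MAF sum in replicate 1 and 69.9% in replicate 2, Mafg 29.6% and 28.5%, and Maff 1.65% and 1.58%. On the log2(TPM + 1) scale Mafk over Maff was 4.87 and 4.89, and Mafg over Mafk was −1.20 and −1.27. Their SDs over the 2 libraries were 0.01 and 0.05, against 1.13 for Nfe2 over Nfe2l2, so the proportions among small MAF genes varied least of the ratios with both genes expressed.

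The small MAF sum was 138 TPM in replicate 1 and 123.8 TPM in replicate 2. The sum of the partners that dimerise with them, CNC and BACH together, was 153.2 TPM in replicate 1 and 119.5 TPM in replicate 2. Small MAF transcripts were therefore 0.900 of their partners' transcripts in replicate 1 and 1.04 in replicate 2. These are amounts of RNA, and protein was not measured. Nfe2 over Mafk was −0.04 in replicate 1 and −0.90 in replicate 2 on the log2(TPM + 1) scale, so the subunits of erythroid NF-E2 had near-equal transcript levels in replicate 1 only.

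Keap1, which encodes the adaptor that brings NRF2 to the CUL3 ubiquitin ligase, lies at chr9:21229730-21239361 on the minus strand. It had 89.1 TPM in replicate 1 (95% interval 87.0 to 91.3) and 64.4 TPM in replicate 2 (63.2 to 65.7), a mean of 76.8 ± 17.5 TPM (SD, n = 2). In scaled counts it was 1.06-fold higher in replicate 1 (1.03 to 1.10), and 91.8% of tested genes, not matched to it in count, differed by more. Nfe2l2 over Keap1 was −2.88 in replicate 1 and −1.81 in replicate 2 on the log2(TPM + 1) scale, so the inhibitor's transcripts exceeded those of its target in both libraries.

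Of 14 gene pairs compared, the same gene was higher in both libraries in 14, although 3 of these had a denominator at the floor. In expected counts, not divided by length, it was 11 of 14, since Nfe2 was then above Nfe2l1, Bach1 and Mafg in replicate 1 and below each of them in replicate 2. In TPM of coding transcripts only, Nfe2 was above Mafk in replicate 1 (92.1 against 83.4) and below it in replicate 2 (45.8 against 82.1). The 95% intervals of gene TPM overlapped for Nfe2 and Mafk in replicate 1 and for Nfe2l2 and Bach1 in replicate 2. The order in those cases is within counting error. The smallest p of an exact permutation test with 2 values on each side is 0.33, so no test of the levels is given. Of the 8 members tested for a difference between libraries, 7 differed beyond counting noise, Nfe2 and Keap1 being higher in replicate 1 and Nfe2l1, Nfe2l2, Bach1, Mafk and Mafg in replicate 2. With total counts as library sizes 6 differed, without Mafg. With 80.4% of all tested genes beyond noise, that count is near the background. The median absolute log2 ratio was 0.28 over the 8 members and 0.59 over all genes tested.

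**Figure D2:**
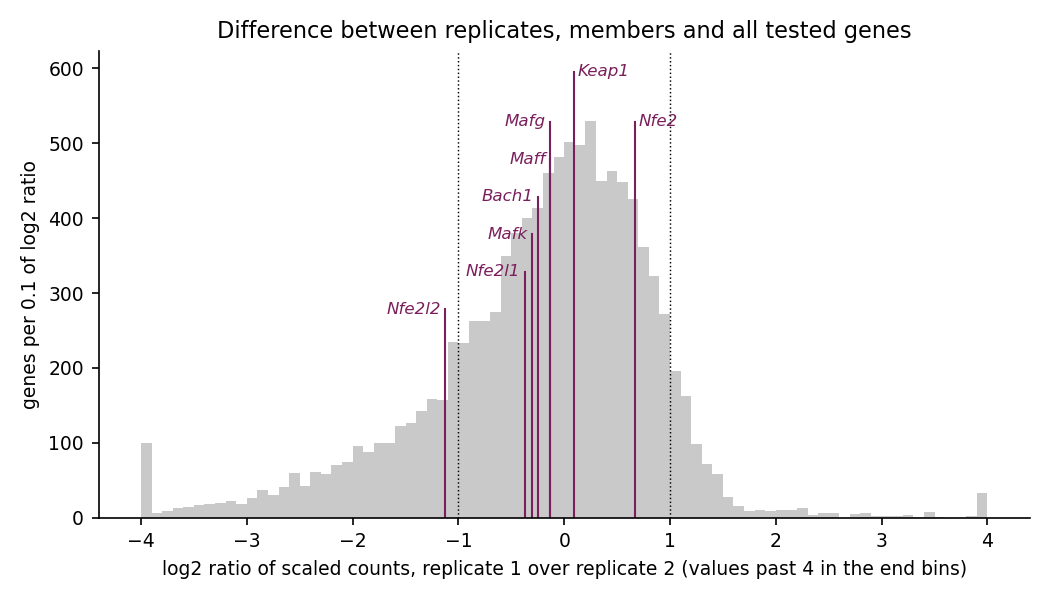
Histogram of the log2 ratio of scaled counts, replicate 1 over replicate 2, for all genes tested, with a vertical line for each of the 8 members tested and dotted lines at 2-fold. Nfe2l2 lies past the dotted line toward replicate 2, Nfe2 lies farthest toward replicate 1, and the other 6 lie between −0.37 and 0.09.

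Some gene models share exons with a neighbour, and strand use in counting is not given in the sources used here. Mafg shares 124 of its 5613 exonic bases with Sirt7 on the same strand, and Mafk shares 169 of 3901 with Tmem184a on the opposite strand. Sirt7 had 2535 expected counts in replicate 1 and 6306 in replicate 2, and Tmem184a had 113 and 133. Keap1 shares 510 of 4693 exonic bases with the antisense gene Gm16754, which had 0 and 2 expected counts. Reads in these shared bases cannot be assigned with certainty.

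The transcript tables divide each gene's TPM among its transcripts, as the authors' estimate. Of the 52 transcripts, 38 are protein-coding, 22 had counts in both libraries and 23 had none in either. The leading transcript was the same in both libraries for 8 of the 10 members, those that were expressed, beside 73.1% of 6389 genes with several transcripts. Nfe2 was the simplest case among them, with 10 transcripts of which Nfe2-201 held 99.9% of the level in replicate 1 and 99.4% in replicate 2. Bach1-201 held 94.6% in replicate 1 and 98.4% in replicate 2, the rest being the noncoding Bach1-202. Mafk-201 held 86.6% and 93.7%, and the noncoding Mafk-203 held 12.1% and 5.07%.

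Mafg and Keap1 were each spread over several coding transcripts of the same coding length. For Mafg these were Mafg-204 with 46.2% in replicate 1 and 48.8% in replicate 2, Mafg-201 with 41.9% and 41.2%, and Mafg-203 with 9.71% and 8.85%, all with a coding length of 486 bases. For Keap1 they were Keap1-205 with 64.5% in replicate 1 and 61.1% in replicate 2, Keap1-202 with 19.1% and 26.4%, Keap1-204 with 8.94% and 5.83%, and Keap1-201 with 7.50% and 6.71%, all with 1872 coding bases. The split among these transcripts moved by less than 10 points between the libraries and leaves the coding length as it is. Maff-201 held 100% in replicate 1 and 93.9% in replicate 2, with Maff-202 for the rest.

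**Figure D3:**
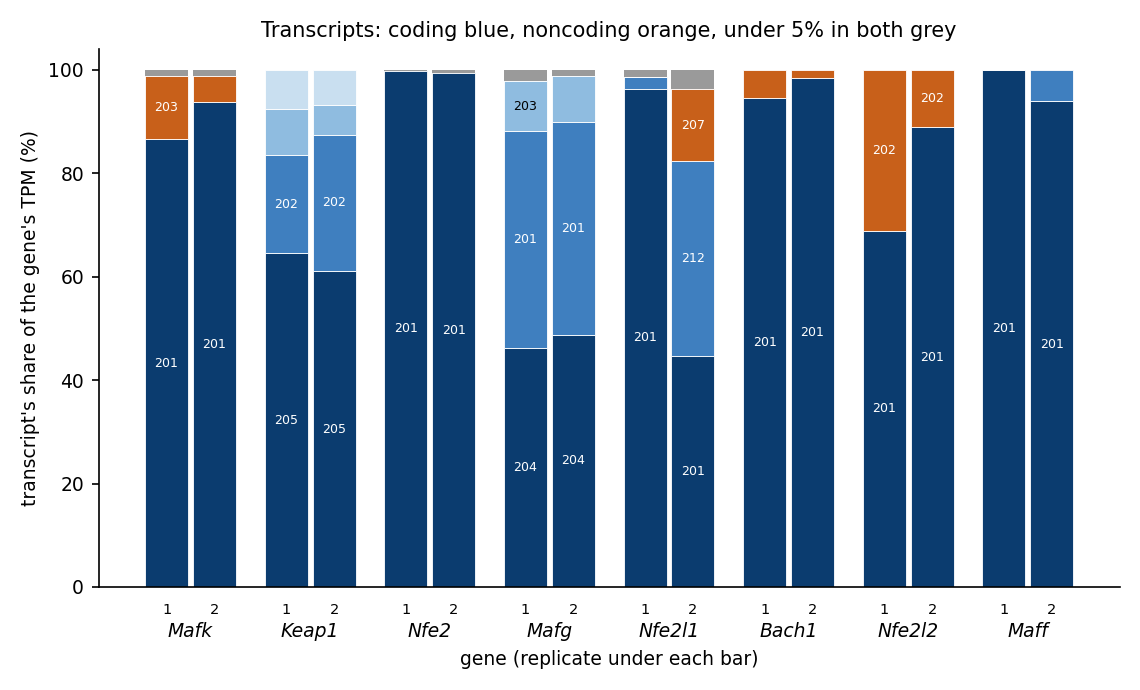
Share of the TPM of each of the 8 expressed members held by its transcripts in percent, with replicate 1 and replicate 2 as the left and right bar of each gene, coding transcripts in blue, noncoding ones in orange and those under 5% in both libraries in grey. Of these 8, Nfe2l1 shows the widest shift, with Nfe2l1-201 at 96.3% in replicate 1 and 44.7% in replicate 2.

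A shift of at least 20 percentage points between libraries was seen for 2 of the 8 expressed members, beside 42.6% of genes compared. One was Nfe2l2, whose coding Nfe2l2-201 held 68.9% in replicate 1 (7.77 TPM) and 89.0% in replicate 2 (15.7 TPM). The noncoding Nfe2l2-202 had 3.51 TPM in replicate 1 and 1.95 TPM in replicate 2. The coding transcript thus differed between the libraries by more than the gene did.

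The other was Nfe2l1, with a shift of 51.6 points. Nfe2l1-201, which encodes the long form, had 28.0 TPM in replicate 1 and 16.8 TPM in replicate 2. Nfe2l1-212, which starts 5841 bases downstream, had 0.66 TPM in replicate 1 (2.28% of the gene) and 14.1 TPM in replicate 2 (37.6%). The noncoding Nfe2l1-207 was listed at 0 in replicate 1 and had 5.24 TPM in replicate 2. A further transcript, with the same coding length of 2223 bases as Nfe2l1-201, was listed at 0 in replicate 1 and had 1.17 TPM in replicate 2. The gene's higher level in replicate 2 was thus held by transcripts other than Nfe2l1-201, which was lower there.

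The coding sequence of Nfe2l1-212 has 1359 bases against 2223 in Nfe2l1-201 and lies whole and in frame within it, so that it lacks the first 864 coding bases. Those bases encode the N-terminal part, which is known to anchor the full-length protein in the membrane. The first 30 coding bases of each are shown because they mark where the open reading frames start, with the start codon in capitals (GENCODE M21 transcripts, GRCm38, minus strand).
Nfe2l1-201: ATGctttctctgaagaaatatttaacggaa
Nfe2l1-212: ATGtccatcatggaaatgcaggctatggaa
The start codon of Nfe2l1-212 is base 865 of the longer coding sequence. Of the 3530 bases of Nfe2l1-212, 3478 also lie in Nfe2l1-201 and 52 do not. Every base of Nfe2l1-212 and of Nfe2l1-207 also lies in some other transcript of the gene. Fragments in shared bases have to be divided by the quantifier, and the authors' posterior values for Nfe2l1-212 were 1.68% of the gene in replicate 1 and 36.7% in replicate 2. The posterior SDs of its count were 32.8 in replicate 1 and 74.2 in replicate 2, small beside the 2498 expected counts in replicate 2 but not beside the 55.8 in replicate 1.

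**Figure D4:**
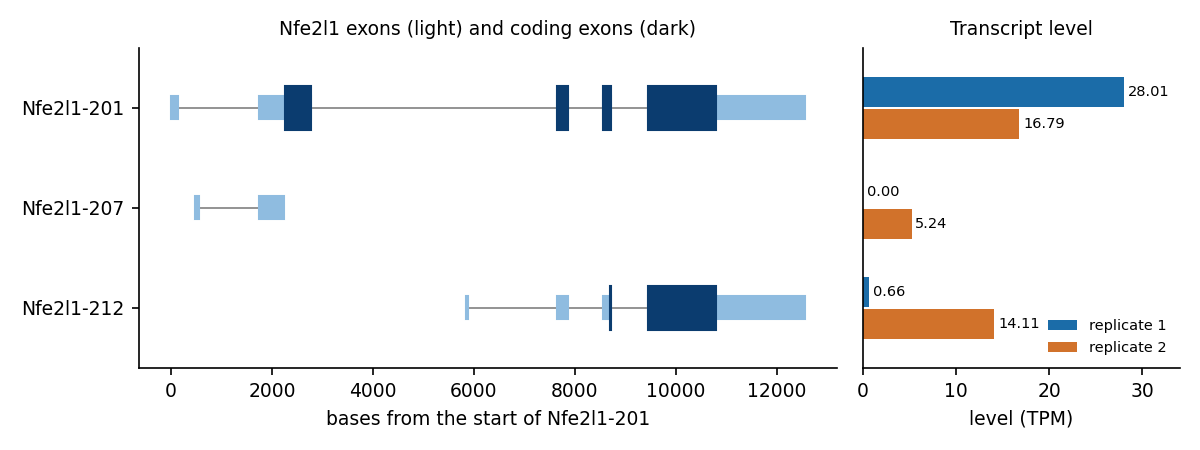
Left, exons (light) and coding exons (dark) of the leading Nfe2l1 transcripts against distance in bases from the start of Nfe2l1-201, and right, the level of each transcript in TPM in replicate 1 and replicate 2. Nfe2l1-212 starts 5841 bases downstream and its level is 0.66 TPM in replicate 1 and 14.1 TPM in replicate 2.

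Start-site windows were read for the members from RefSeq (GRCm38.p6), from 250 bases before a gene's start to 50 after it, and 9 of the 10 members matched with 15 windows, Nfe2 being the member without an entry. Motifs were searched on both strands: TGACNNNGC, the antioxidant response element core, TGANTCA, the AP-1 and NF-E2 core, AGATAA and TGATAA for GATA factors, CCACACCC for the CACC box, GGGCGG for the GC box, CAGCTG for an E-box and TATAAA for the TATA box. The antioxidant core can overlap the AP-1 and NF-E2 core, and GC boxes can overlap each other, as a pair of those in Mafk does. A match is a description of letters and not of binding. The windows of the Nfe2l1-201 and Nfe2l1-212 starts are shown because their transcripts differed most between the libraries, and those of Nfe2l2 and Mafk because they hold an antioxidant core. Capitals mark any motif searched, and each sequence is written 5′ to 3′ on the gene's strand.
Nfe2l1-201 start, chr11:96829919-96830218, minus strand: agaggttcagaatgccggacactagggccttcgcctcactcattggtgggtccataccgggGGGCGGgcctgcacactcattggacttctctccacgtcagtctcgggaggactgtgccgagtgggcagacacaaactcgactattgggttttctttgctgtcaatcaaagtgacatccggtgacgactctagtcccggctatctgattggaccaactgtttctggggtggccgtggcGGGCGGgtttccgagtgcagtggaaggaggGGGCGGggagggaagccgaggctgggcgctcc
Nfe2l1-212 start, chr11:96824078-96824377, minus strand: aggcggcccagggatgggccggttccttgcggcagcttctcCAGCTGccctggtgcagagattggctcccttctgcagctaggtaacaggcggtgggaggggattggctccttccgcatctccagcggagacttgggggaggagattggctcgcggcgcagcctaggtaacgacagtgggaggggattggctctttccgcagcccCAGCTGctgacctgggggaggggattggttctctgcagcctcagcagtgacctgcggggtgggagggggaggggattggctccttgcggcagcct
Nfe2l2, chr2:75704614-75704913, minus strand: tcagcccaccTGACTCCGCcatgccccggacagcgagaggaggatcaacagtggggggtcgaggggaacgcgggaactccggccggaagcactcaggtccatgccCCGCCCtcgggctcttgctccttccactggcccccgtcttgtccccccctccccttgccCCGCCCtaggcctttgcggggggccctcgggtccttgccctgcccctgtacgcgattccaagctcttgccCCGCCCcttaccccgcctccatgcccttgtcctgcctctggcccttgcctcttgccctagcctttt
Mafk, chr5:139791286-139791585, plus strand: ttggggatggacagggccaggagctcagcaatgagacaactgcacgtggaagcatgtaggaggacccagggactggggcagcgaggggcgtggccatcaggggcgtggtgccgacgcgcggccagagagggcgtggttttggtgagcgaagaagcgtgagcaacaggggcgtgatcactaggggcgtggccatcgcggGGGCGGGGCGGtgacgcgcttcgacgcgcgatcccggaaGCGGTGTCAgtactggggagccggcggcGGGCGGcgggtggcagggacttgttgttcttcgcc
The windows of Nfe2l1 differ in their letters. The window of the Nfe2l1-201 start holds 3 GC boxes and no E-box of this form, and that of the Nfe2l1-212 start holds 2 E-boxes and no GC box. Over all 32851 windows, a GC box occurred in 35.7% and the E-box in 16.3%.

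The antioxidant core was found in windows of Nfe2l2, Mafk, Mafg and Maff, and it occurred in 12.4% of all windows. In Nfe2l2 its first base lies at −240 from the start site, and in Mafk at −13. In Mafg it lies at −222. The Maff window that holds it, at −112, is not that of Maff-201, the transcript that carried the counts, but one further upstream, which also holds AGATAA and a CACC box. The motif TGANTCA was found in none of the 15 windows, against 7.81% of all windows. Keap1 held AGATAA at −128 (11.2% of all windows) and Bach2 held TGATAA (9.05%). The members' windows had a median GC content of 65.7%, against 52.7% over all windows.

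Genes that act on the members or carry their sites were read from lists that together hold 116 distinct genes, of which 91 were expressed in both libraries. The lists were chosen with earlier results of these data known. Among all 10635 genes tested, 37.2% were beyond noise and higher in replicate 1 and 43.1% higher in replicate 2.

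Of the 12 genes of NRF2 turnover, 12 were expressed, with a median of 33.4 TPM in replicate 1 and 22.5 TPM in replicate 2, against 20.3 and 19.1 TPM over all genes at 1 TPM in both. Of these 7 were beyond noise and higher in replicate 1, and 4 in replicate 2. The autophagy receptor Sqstm1, which sequesters KEAP1, had 138.3 TPM in replicate 1 and 71.1 TPM in replicate 2. In scaled counts Sqstm1 was only 1.13-fold higher in replicate 1. The ligase scaffold Cul3 had 35.7 TPM in replicate 1 and 18.2 TPM in replicate 2. Rbx1, the RING subunit of the same ligase, stood the other way, with 2.76 TPM in replicate 1 and 26.9 TPM in replicate 2, and was 12.2-fold higher in replicate 2 in scaled counts. The subunits of the KEAP1 ligase thus did not keep 1 ratio between the libraries.

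All 10 genes of NRF1 processing were expressed, with a median of 74.6 TPM in replicate 1 and 64.6 TPM in replicate 2. Ddi2, the protease that cleaves NRF1, had 20.5 TPM in replicate 1 and 16.4 TPM in replicate 2. In scaled counts Ddi2 was instead 1.16-fold higher in replicate 2. Ngly1, which removes the N-glycans of NRF1, had 36.5 TPM in replicate 1 and 29.8 TPM in replicate 2. In scaled counts Ngly1 was 1.04-fold higher in replicate 2, within counting noise. The ATPase Vcp, which draws NRF1 from the membrane, stood far above Ddi2 and Ngly1 with 554.5 TPM in replicate 1 and 303.2 TPM in replicate 2. Of the 10 genes, 5 were beyond noise and higher in replicate 1 and 4 in replicate 2, near the shares of all genes. The 31 proteasome subunit genes, the class that NRF1 is known to drive, were all expressed, with a median of 26.6 TPM in replicate 1 and 84.1 TPM in replicate 2. Of these 13 were beyond noise and higher in replicate 1 and 16 in replicate 2, and 8 were at least 2-fold higher in replicate 2, beside 19.5% of all tested genes. The highest, Psmb4, had 823 TPM in replicate 1 and 360 TPM in replicate 2, and the lowest, Psmc6, had 5.0 and 2.31 TPM. Psmd3 had 447.2 TPM in replicate 1 and 209.7 TPM in replicate 2, Psmb5 had 311.1 and 187.9 TPM, and Psmd4 had 209.2 and 299 TPM. The subunits named thus stood on both sides between the libraries.

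The 6 genes of BACH1 turnover and export, of which Cul1 and Skp1a also belong to NRF2 turnover, were expressed in both libraries, with a median of 30.9 TPM in replicate 1 and 16.9 TPM in replicate 2. In scaled counts all 6 were beyond noise and higher in replicate 1, beside 37.2% of all genes tested. Of the 6, 0 were at least 2-fold higher there, beside 7.32% of all genes tested. Fbxo22, a ligase subunit for heme-bound BACH1, had 21.5 TPM in replicate 1 and 13.8 TPM in replicate 2. The exportin Xpo1 had 61.2 TPM in replicate 1 and 28.0 TPM in replicate 2. Bach1 itself had 20.6 TPM in replicate 1 and 18.5 TPM in replicate 2 but was 1.19-fold higher in replicate 2 in scaled counts.

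Of 25 targets of the antioxidant element, 19 were expressed and 1, Ephx1, had no count. The median over all 25, those not expressed included, was 7.93 TPM in replicate 1 and 11.2 TPM in replicate 2. The median of all expressed genes leaves out genes under 1 TPM in either library, so these medians are not compared. Of 20 tested, 8 were beyond noise and higher in replicate 1, and 9 in replicate 2. The 4 highest were Blvrb, Tkt, Gclm and Taldo1, which serve heme breakdown, the pentose phosphate pathway and glutathione synthesis. Blvrb had 727.2 TPM in replicate 1 and 1280.2 TPM in replicate 2, and Gclm, the modifier subunit of glutamate-cysteine ligase, had 930.2 TPM in replicate 1 and 372 TPM in replicate 2. Tkt and Taldo1, enzymes of the pentose phosphate pathway, had 208 and 24.98 TPM in replicate 1 against 1236 and 351 TPM in replicate 2. Genes of this list thus stood on opposite sides between the libraries. Their own windows were not read for the site here.

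Of 10 targets described for BACH1 or for heme, which overlap the antioxidant and globin lists, 9 were expressed. Of the 10, 3 were beyond noise and higher in replicate 1, of which 2 were at least 2-fold higher. Another 7 were beyond noise and higher in replicate 2, of which 5 were at least 2-fold higher. Of all tested genes, 7.32% were at least 2-fold higher in replicate 1 and 19.5% in replicate 2. The globins Hbb-bs, Hba-a1 and Hba-a2 are among the 5. Nqo1, the quinone reductase, was the gene not expressed, with 0.51 TPM in replicate 1 and 0.18 TPM in replicate 2, from 18 and 13 expected counts. Hmox1, the heme oxygenase gene that BACH1 is best known for repressing, had 1.10 TPM in replicate 1 and 3.68 TPM in replicate 2. The ferritin genes Fth1 and Ftl1 stood at the other end, with 16871 and 8651 TPM in replicate 1 and 14329 and 8716 TPM in replicate 2. In scaled counts Fth1 was 1.06-fold and Ftl1 1.44-fold higher in replicate 2. The heme transporter Slc48a1 had 114 TPM in replicate 1 and 108 TPM in replicate 2 but was 2.27-fold higher in replicate 2 in scaled counts, and the iron exporter Slc40a1 had 6.33 TPM and 4.43 TPM.

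Targets described for NFE2 were read as a megakaryocyte list and an erythroid list. Of 7 megakaryocyte targets, none reached 1 TPM in both libraries and Casp12, Selp and Ppbp had no count. Pf4, the platelet chemokine, had 0.90 TPM in replicate 1 and 0.84 TPM in replicate 2, and Tubb1, the platelet tubulin, had 0 and 5 expected counts. Of 7 erythroid targets, 7 were expressed, with a median of 148.8 TPM in replicate 1 and 136.3 TPM in replicate 2. Of these, 0 were beyond noise and higher in replicate 1 and 5 in replicate 2, all 5 at least 2-fold. Of all tested genes, 43.1% were beyond noise and higher in replicate 2, and 19.5% were at least 2-fold higher there. The 5 were the globins Hbb-bs, Hbb-bt, Hba-a1 and Hba-a2 with Alas2, so the count rests mostly on globins. The summed level of the 7 was 2874 TPM in replicate 1 and 19084 TPM in replicate 2. Fech, which encodes the last enzyme of heme synthesis, had 173.5 TPM in replicate 1 and 136.3 TPM in replicate 2. In scaled counts Fech did not differ beyond noise (0.999-fold, replicate 1 over replicate 2). The globin Hbb-bs had 863 TPM in replicate 1 and 9484 TPM in replicate 2, the opposite order to Nfe2. Hba-a1 and Hba-a2 are near-identical, so their split of reads is uncertain. Whether depth or globin content has a part in the Nfe2 difference was not tested.

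Other basic leucine zipper genes that can pair with members or bind like sites were mostly low. Of 16 such genes, 4 were expressed in both libraries, and Maf, Atf3 and Batf2 were among those with no count. Atf4, a stress-response activator, had 72.4 TPM in replicate 1 and 77.0 TPM in replicate 2. Junb had 81.6 TPM in replicate 1 and 37.9 TPM in replicate 2, and Jund had 41.2 and 24.7 TPM. Jun was lower, with 6.60 TPM in replicate 1 and 4.57 TPM in replicate 2. The large MAF gene Maf, known for a role in the lens, was thus not detectable here, while Mafk was the most abundant member.

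**Figure D5:**
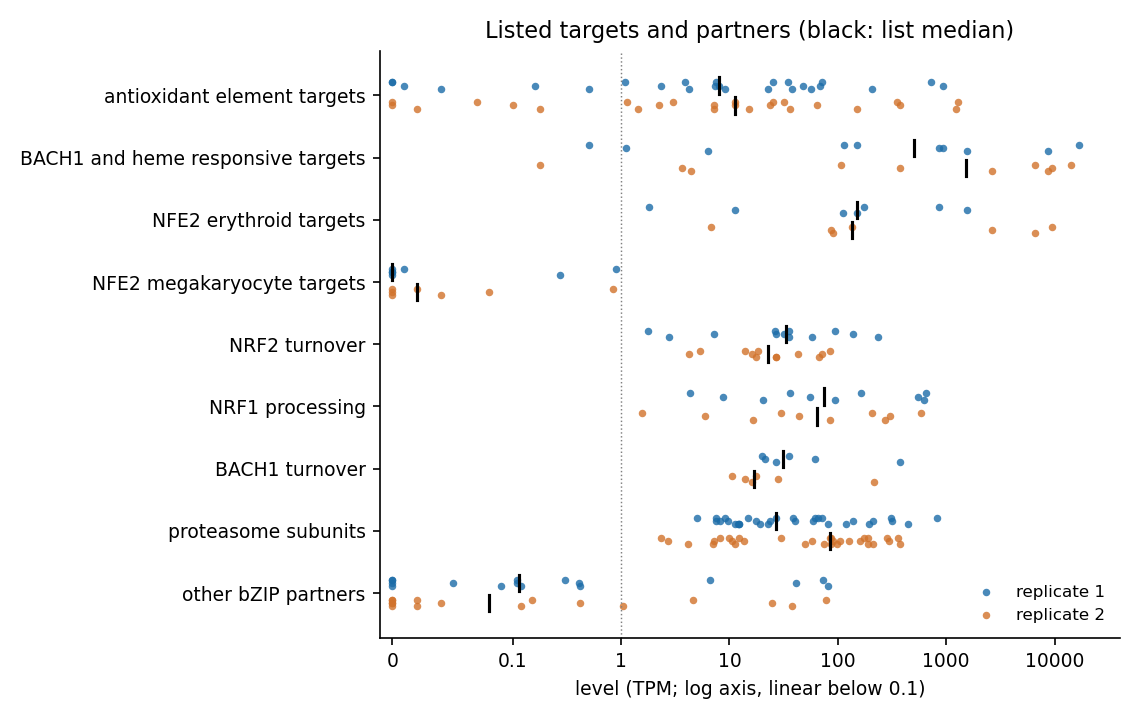
Level in TPM of each gene of the listed partners and targets on a logarithmic axis that is linear below 0.1, with replicate 1 above replicate 2 in each row, a black bar for the list median and a dotted line at 1 TPM. The NFE2 megakaryocyte targets lie below the line in both libraries and the NFE2 erythroid targets above it.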

How the data were processed

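Both libraries of G1E-ER4 RNA had a gene table and a transcript table. Per the labels the assembly is mm10, and per the file headers the deposited columns hold expected counts (estimated fragments, not normalised), TPM, FPKM and, for transcripts, the percent of the gene's TPM, with posterior means of these. Annotation was GENCODE M4 per the text deposited with the tables. The names of aligner and quantifier, and whether counting used strand, were not given in the sources used here. Spike-in and non-mouse rows were left out. Coordinates, biotypes and transcript names came from GENCODE M21 on GRCm38 and promoters from RefSeq GRCm38.p6. Of the 52 transcripts, 50 have the same length in M21.

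Expected counts were rounded to whole numbers. A quasi-likelihood test in edgeR needs residual degrees of freedom, and 1 library per side leaves none. Genes with a summed count of at least 20 were compared by the exact conditional binomial test, two-sided, with TMM-scaled library sizes (edgeR 4.0.16, scipy 1.17.1) and Benjamini-Hochberg adjustment at 0.05. Ratios used a prior count of 2, and pair ratios a pseudocount of 1 TPM. Intervals are exact at 95% and, with the floor of 3 counts (per library, on the gene's shortest transcript), cover counting error only. Tested on simulated data over 10673 genes, with Poisson noise only, it called 77.0% of 100 genes set 1.5-fold apart and 98.0% of 100 set 4-fold apart. Alternatives were total counts, DESeq2 size factors (DESeq2 1.42.0), no count filter, posterior means, FPKM, other thresholds and pseudocounts, and leaving out each library.

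The members, lists, pairs and motifs were chosen with earlier results of these data known. Named were all members, their transcripts with at least 5% of the gene in either library, genes of lists of up to 12, and of longer lists the 4 highest by mean TPM and the lowest.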

Additional observations from a re-analysis of the deposited data

How the results depend on the processing

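No paired analysis was possible because the labels give 1 group only. Of 27 alternatives for the counts of members and lists, 25 stayed within 1.5 times the main count. The exceptions were members at least 2-fold apart, 0 with total counts as library sizes and 2 at a 1.5-fold threshold, where Nfe2 joined Nfe2l2. Without either library, 8 members and 91 to 92 of 116 listed genes reached 1 TPM. Of the other values, 3 of those that were called or compared reversed, and that of Maff, within noise, changed sign. Another 21 moved without reversing, pair ratios by more than their SD between libraries or counts of all genes by more than 1.5 times. With total counts the log2 ratio of Mafg was 0.041 and of Maff 0.036, with 6 members beyond noise. In expected counts not divided by length the mean of Nfe2 over Nfe2l1 was −0.36 and of Nfe2 over Bach1 −0.10, and 11 of 14 pairs kept the same gene higher in both libraries. The reversals of pairs follow from gene length by construction, and those of Mafg and Maff from the scaling, which moved the median log2 ratio of all tested genes to 0.11, against −0.06 with TMM, and the share of calls higher in replicate 1 to 55.2%, against 46.3%. The number of all genes at least 2-fold apart was 2848 (26.8% of those tested). It was 4376 with no count filter, where more genes are tested and the share was 27.9%, and 5375 at 1.5-fold (50.5%). Depth limits Maff, Bach2 and Nfe2l3 most.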
